A study of Mus musculus with 13 samples.

Results

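The comparison described here set epidermal stem cells of 1-year-old wild-type mice against those of 2-month-old wild-type mice, in 3 libraries per age, which are 6 of the 13 libraries of the series. Members were the libraries titled as wild type (WT) at either age; the other 7 were labelled as knockout (KO) for Fbln7, the gene of the matrix glycoprotein fibulin-7, with 3 at 2 months and 4 at 1 year. Fbln7 had 2, 1 and 1 reads in the libraries labelled KO at 2 months and 9, 10, 28 and 0 at 1 year, so 3 of the latter hold reads of the targeted gene; which part of it the knockout removes is not given in the labels. KO below means labelled KO, and directions drawn from those libraries rest on that label. All animals were of strain C57BI/6 as the labels spell it. The cells came from back skin epidermis, loosened with trypsin and sorted by flow cytometry, and total RNA was made into stranded libraries with a low-input kit. The labels do not give the sex of the mice, the antibodies used for the sort, or whether each library came from its own animal, so p-values measure the spread between these libraries, which may be technical. The study asks how the stem cells change with age.

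Epidermal stem cells sit in the basal layer of the epidermis, where integrins and hemidesmosomes hold them on the basement membrane, a sheet of laminins and collagens. Their daughters leave that layer, switch from keratins 5 and 14 to keratins 1 and 10, and build the cornified barrier. With age, skin is known to change in its matrix, its repair and its lipid and energy metabolism, and the gene groups below follow those themes.

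The libraries were sequenced in 3 runs, called A, B and C here, and age and run overlapped only in part. Replicates 1 and 2 at 2 months were in run A, replicates 1 and 2 at 1 year in run B, and replicate 3 of both ages in run C. Total gene reads per WT library ranged from 6071671 to 11592177. Reads of the ribosomal RNA gene Rn18s-rs5 made up 26.8 to 35.6% of the run A libraries, 13.1 to 13.5% of the run B libraries, and, in run C, 4.85% at 2 months and 2.53% at 1 year. Basal markers were high in every library: Krt14, a basal keratin, had 3566 to 4477 CPM (read counts scaled to the effective library size) and Krt5, its partner, 4091 to 6379. Adipocyte and muscle markers summed to at most 4.21 CPM. Xist, the RNA of the inactive X chromosome, had 8, 9 and 12695 reads at 2 months and 4948, 48 and 8 at 1 year, while the Y-linked Ddx3y had 113, 185 and 3 reads and then 19, 371 and 713. Sex-linked transcripts therefore moved with age in the run C pair, with Xist high at 2 months and Ddx3y high at 1 year, and were mixed across runs A and B.

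A small set of genes passed the test for age. With run as a term of the model, 30 of 14740 genes (0.204%) differed at an adjusted p under 0.05 in edgeR's quasi-likelihood test with Benjamini-Hochberg adjustment. Of these, 23 (0.156%) were higher at 1 year and 7 (0.0475%) were lower. The higher set held genes best known from neurons, among them Ctnnd2, Cadm3 and Map2, and the lower set held genes of adenosine, proline and innate immune biology, among them Adora1, Prodh and Gbp2. In 22 of the 23 higher genes and 4 of the 7 lower genes, the 3 libraries of one age did not overlap with those of the other; over all genes tested, 9.93% lay wholly higher at 1 year and 6.38% wholly lower. Run C holds both ages and so, with its libraries of both genotypes, sets the sign of the fit. The difference between runs B and A in WT had that sign for 22 of the 23 and 7 of the 7 genes. Unadjusted p was under 0.05 for 1907 genes, 1261 of them higher.

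The count of called genes was unstable. It fell to 0 without the 2-month WT replicate 3 (779 genes at an unadjusted p under 0.05). Without the 1-year WT replicate 3 it fell to 2 (Srp54a and Pid1). It was 10, 13 and 14 without the 1-year WT replicates 1 and 2 and the 2-month WT replicate 2. The KO libraries help to set the run terms, the spread and, through run C, the fitted WT difference itself. Without the 2-month KO replicate 3 the count was 5, and 13, 699 and 217 without the 1-year KO replicates 1, 2 and 3. DESeq2 called 282 genes, all 30 of the edgeR calls included; edgeR called 8 genes with the Xist share as a covariate, 7 of them among the 30, and limma on the authors' TPM called 0, with 1018 at an unadjusted p under 0.05.

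**Figure D1:**
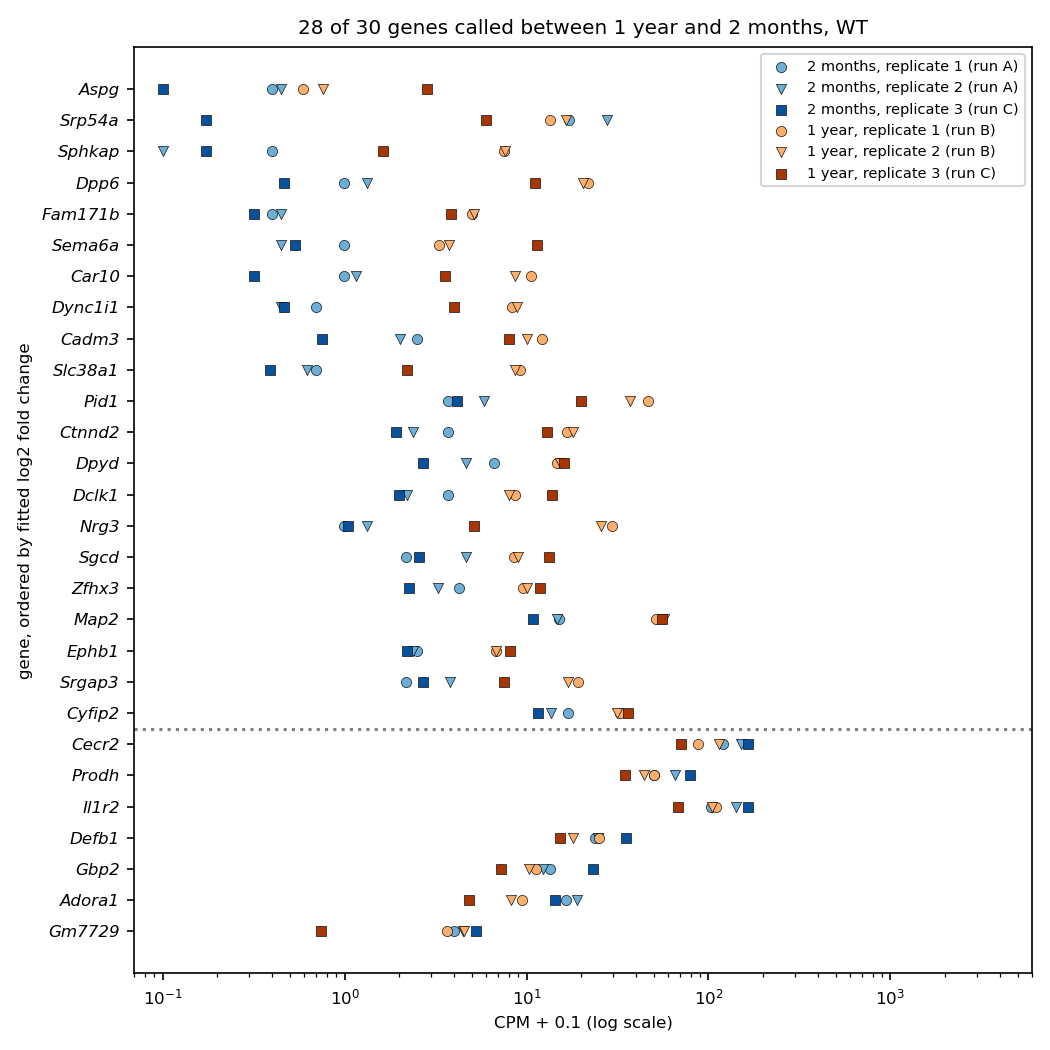
Levels of 28 of the 30 called genes (y axis, ordered by fitted log2 fold change) in the 6 WT libraries, as CPM + 0.1 on a log scale (x axis). Each symbol is 1 library, with run C in dark squares; genes above the dotted line were higher at 1 year, where Srp54a is the 1 whose libraries overlap.

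Map2, a microtubule-associated protein of dendrites (chromosome 1, 66175273 to 66442583, plus strand, GRCm38), had 14.9, 14.7 and 10.7 CPM at 2 months and 51.5, 57.1 and 55.6 CPM at 1 year. The 3 libraries of 1 year lay close together across both of their runs and well above every 2-month library. The means were 13.4 ± 2.36 and 54.7 ± 2.87 CPM (SD, n = 3 each), and the fitted log2 difference was 2.06 ± 0.29 (SE) with an adjusted p of 0.0154 in edgeR. Cyfip2, a subunit of the WAVE complex that steers actin branching, had 16.7, 13.5 and 11.4 CPM and then 32.4, 31.4 and 36.2 CPM. It showed the same separation at a smaller size, 1.503 ± 0.27 (SE) on the log2 scale, with an adjusted p of 0.0439 in edgeR.

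Dpyd, which begins the breakdown of pyrimidines, had 6.56, 4.55 and 2.61 CPM at 2 months and 14.6, 15.1 and 16.1 CPM at 1 year. Zfhx3, a homeobox transcription factor, had 4.18, 3.15 and 2.17 CPM and then 9.42, 9.91 and 11.7 CPM. In both, the ages did not overlap and run C lay just above run B at 1 year; log2 fold changes were 2.44 for Dpyd and 2.18 for Zfhx3. Ephb1, a receptor of ephrin-B ligands, rose by 1.92 on the log2 scale and Dclk1, a microtubule-binding kinase, by 2.44 (edgeR adjusted p = 0.0455 and 0.048). Pid1, a phosphotyrosine-interaction domain protein, had 3.58, 5.77 and 4.06 CPM and then 46.6, 37.0 and 19.8 CPM; it stood apart in every library and was 1 of the 2 calls made without the 1-year WT replicate 3. Sema6a, a membrane semaphorin, had 0.895, 0.350 and 0.435 CPM and then 3.18, 3.63 and 11.3 CPM, and Slc38a1, a glutamine transporter, had 0.597, 0.525 and 0.290 CPM and then 9.06, 8.59 and 2.10 CPM. Sema6a was highest in run C and Slc38a1 in run B.

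Adhesion genes shared with neurons were lower in level and also apart. Ctnnd2, delta-catenin, which binds cadherins at cell contacts (chromosome 15, 30172593 to 31029341, plus strand), had 3.58, 2.27 and 1.81 CPM at 2 months and 16.5, 17.8 and 12.9 CPM at 1 year. Every 1-year library was above every 2-month library, and the fitted log2 difference was 2.76 ± 0.33 (SE), with an adjusted p of 0.00301 in edgeR. Cadm3, a nectin-like adhesion molecule, had 2.39, 1.92 and 0.652 CPM and then 12.0, 9.91 and 7.90 CPM, a log2 difference of 3.37 ± 0.41 (SE) with the same adjusted p. Of 28 tested members of a list of neuronal adhesion and synapse genes, 3 rose, Ctnnd2 and Cadm3 among them, and 0 fell, where 0.156% of all genes rose. The list was drawn up with earlier results known and opens with Ctnnd2 and Cadm3, so that count is not independent of their calls. The ages did not overlap for 15 members higher at 1 year and 1 lower (9.93% and 6.38% of all genes), and the list's median log2 fold change was 1.54 against -0.01 over all genes tested. That median was 0.95 without the 2-month WT replicate 3 and 0.16 with limma on the authors' TPM, where 6 of 28 lay wholly higher, beside 906 of all 14740 genes.

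For other called genes the 1-year level differed strongly between runs. Nrg3, a ligand of the ErbB4 receptor, had 0.895, 1.22 and 0.942 CPM at 2 months, 29.4 and 25.4 CPM in run B at 1 year, and 5.04 CPM in run C. Run C at 1 year thus lay between 2 months and run B. Dpp6, a partner of potassium channels, had 0.895, 1.22 and 0.362 CPM, then 21.5, 20.3 and 11.1 CPM. In 14 of the 23 higher genes both run B libraries lay above the run C library at 1 year, and in 8 run C lay above both. The authors' TPM was 0 in the 1-year run C library for 4 of the 23 genes in spite of their reads there, Dpp6, Nrg3 and Dync1i1 among them, and 6 had a TPM of 0 in all 3 libraries of 2 months.

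Markers of neurons and glia moved with run B at 1 year. A list of 14 neuron markers, drawn up after these values were seen, summed to 30.1, 17.7 and 14.8 CPM at 2 months and 299, 256 and 24.2 CPM at 1 year. A like list of 8 glia markers summed to 43.3, 46.2 and 74.4 CPM and then 167, 167 and 25.6 CPM. Both lists were highest in the run B libraries. Merkel cell markers, several of them neuronal genes, summed to 76.7 and 65.8 CPM there and 4.84 CPM in run C at 1 year. Snap25, a synaptic vesicle fusion protein, had 0.298, 0 and 0.145 CPM and then 58.5, 48.8 and 0.892 CPM. Nefl, a neurofilament subunit, was at 0 at 2 months and in run C at 1 year, against 47.9 and 40.9 CPM in run B. The 1-year KO libraries of run B also summed high for neuron markers, at 333 and 335 CPM, against 41.5 and 32.1 CPM in run C. In these bulk samples, more cells of a type and more RNA per cell cannot be told apart. In an alternative chosen after seeing these values, all 4 libraries of run B were left out, so that 1-year WT rests on replicate 3 alone. Fitted log2 fold changes there were 2.34 for Map2, 2.82 for Ctnnd2, 3.445 for Cadm3 and 1.70 for Cyfip2. For Nrg3, Slc38a1, Dync1i1, Srgap3 and Sphkap they were 2.18, 3.22, 3.30, 1.65 and 4.48. With all libraries those 5 genes had 2.22, 3.275, 3.42, 1.72 and 4.60. What part neural transcripts have in the calls was not tested.

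The higher genes were long. Their median span from start to end was 296.7 kb in GENCODE M21, against 25.3 kb over the 14317 tested genes with a span and 29.9 kb over the 7 lower genes. Of the 23, 18 spanned over 100 kb, 78.3% against 16.5% of all tested. Sgcd, a sarcoglycan gene of 1093 kb, had 2.09, 4.55 and 2.46 CPM and then 8.44, 8.92 and 13.3 CPM of total gene reads, with a TPM of at most 0.0706 in any WT library. For Sgcd, the call thus rests on reads that the TPM values largely leave out, whereas Map2 had a TPM of 0.740, 1.42 and 1.05 at 2 months and 5.77, 7.62 and 6.05 at 1 year.

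**Figure D2:**
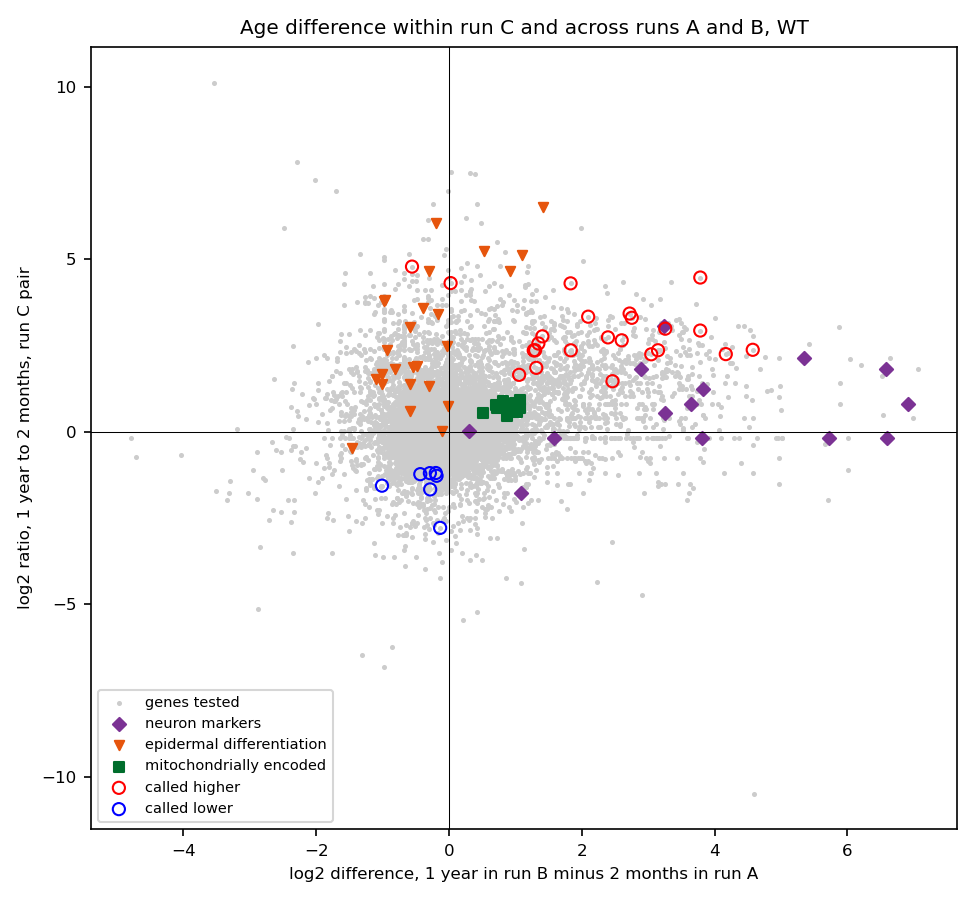
Log2 difference between 1 year in run B and 2 months in run A (x axis) against the log2 ratio of 1 year to 2 months in the run C pair (y axis), 1 point per tested gene in WT. Neuron markers spread to the right near the zero line of run C, epidermal differentiation genes lie high in run C only, the 13 mitochondrially encoded genes form a tight group above 0 on both axes, and 22 of the 23 genes called higher (red circles) are above 0 on both.

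Several fitted values rest on few reads. Srp54a, a subunit of the signal recognition particle that targets nascent proteins to the endoplasmic reticulum, had the smallest p, with a fitted log2 difference of 5.62 ± 0.62 (SE) and an adjusted p of 0.00295 in edgeR. It had 17.0, 27.5 and 0.0724 CPM at 2 months and 13.3, 16.4 and 5.87 CPM at 1 year, so the ages overlapped and the value came from run C, where 1 read stood against 92. Without a run term the log2 fold change was -0.29 (edgeR adjusted p = 0.979). In KO, too, run C held the low library at 2 months, with 0.162 CPM against 20.5 and 19.6 CPM. Srp54b, a near-identical gene, had 60.6, 53.7 and 97.7 CPM and then 61.6, 74.1 and 92.9 CPM; 70.4% of the 50-base words in the Srp54a transcripts also occur in those of Srp54b, so the value is uncertain; how reads were assigned between the copies is not given in the sources used here, and its part in the value was not tested. The asparaginase Aspg, at a mean of 0.757 CPM over the WT libraries, had 3 reads at 2 months and 53 at 1 year over 3 libraries each, a scaled ratio of 12.3 (95% counting interval 3.98 to 61.4). Sphkap, an anchor of protein kinase A, had 2 reads against 153, a scaled ratio of 53.1 (95% counting interval 14.5 to 443).

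The 7 genes that fell included receptors, defence genes and an enzyme of amino acid metabolism. Adora1, the adenosine A1 receptor (chromosome 1, 134199223 to 134235431, minus strand), had 16.4, 18.7 and 14.2 CPM at 2 months and 9.30, 8.15 and 4.72 CPM at 1 year. The ages did not overlap, and it fell by 1.73 on the log2 scale (SE 0.26, edgeR adjusted p = 0.0159). Of 10 tested genes of adenosine receptors and turnover, Adora1 was the 1 that passed. Prodh, proline dehydrogenase, which opens the breakdown of proline in mitochondria (chromosome 16, 18060357 to 18090203, minus strand), had 49.8, 65.1 and 79.5 CPM and then 49.8, 44.0 and 34.5 CPM. It fell by 1.13 (SE 0.18, adjusted p = 0.0175), with its 2-month replicate 1 and 1-year replicate 1 almost level. The enzyme of the following step, Aldh4a1, had 44.2, 46.0 and 51.9 CPM and then 43.1, 37.1 and 26.1 CPM and did not pass (log2 fold change -0.90, adjusted p = 0.131). Aldh18a1, which makes proline, had a log2 fold change of 0.59 (adjusted p = 0.366).

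Gbp2, a GTPase induced by interferon, had 13.4, 12.2 and 23.0 CPM at 2 months and 11.1, 10.2 and 7.14 CPM at 1 year. It fell by 1.66 on the log2 scale (SE 0.28, edgeR adjusted p = 0.0261), and the largest gap was within run C. Of 14 tested interferon response genes, 1 (Gbp2) fell and 0 rose; 12 had estimates below 0 and the median log2 fold change was -0.51. Il1r2, the decoy receptor of interleukin 1, fell by 1.16 (adjusted p = 0.0452) from 104, 142 and 164 CPM to 109, 104 and 67.6 CPM, with overlap between the ages. Defb1, an antimicrobial beta-defensin, had 23.6, 24.5 and 35.1 CPM and then 25.0, 17.8 and 15.2 CPM, and fell by 1.32 (adjusted p = 0.0455). Cecr2, a bromodomain protein of chromatin remodelling, fell by 1.03 (adjusted p = 0.0455) from 120, 151 and 166 CPM to 88.0, 114 and 70.4 CPM. The pseudogene Gm7729 had 3.88, 4.37 and 5.14 CPM at 2 months and 3.55, 4.41 and 0.637 CPM at 1 year, so its call rests on run C.

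The run C pair, 1 library per age and so without a test, set hair, matrix and sex-linked genes furthest apart. Of 12252 genes with at least 50 reads in the pair, 1194 (9.75%) were at least 2-fold higher at 1 year and 432 (3.53%) at least 2-fold lower. Among genes with at least 200 reads, the highest log2 ratios included the collagens Col1a1 (1 read against 629, ratio 9.11 with a 95% counting interval of 6.63 to 14.42) and Col1a2 (2 against 565, ratio 7.96). They also included the hair keratins Krt25 (1 against 250, ratio 7.78) and Krt35 (0 against 417, which is at least 6.93 when the 0 is taken as 3 reads), Fa2h, a lipid hydroxylase (1 against 202), and the Y-linked Ddx3y and Uty (ratios 7.71 and 9.385). In the run B libraries at 1 year, Col1a1 had 0.734 and 0.661 CPM and Krt35 0.245 and 0.220 CPM, against 40.1 and 26.6 CPM in run C, so these heights belonged to 1 library.

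The lowest ratio was that of Xist, -10.82. It was followed by Gm17106 at -5.62, which also differed between runs (475, 398 and 15.7 CPM at 2 months, then 112, 31.3 and 0.319 CPM), and by the pseudogenes Gm9285 and Gm21092 at -3.64 and -3.50. Cmss1 had 8301, 6108 and 1785 CPM at 2 months and 1515, 1237 and 293 CPM at 1 year, a ratio of -2.61 in run C. Its order over libraries resembled that of the Rn18s-rs5 share given above; what part ribosomal fragments have in it was not tested. The small nuclear RNA Gm24830 was listed at 0 in the 2-month library of run C and in 1 library of run B, and at up to 161 CPM elsewhere, so its ratio follows no age.

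Genes encoded in mitochondrial DNA, which code for subunits of the respiratory chain, lay above 2 months both within run C and between runs B and A, without passing the test singly. All 13 had estimates above 0, with a median log2 fold change of 0.51, and 10 of 13 (76.9%) lay wholly above 2 months, against 9.93% of all genes tested; 0 of 13 passed in edgeR and 9 had an unadjusted p under 0.05. In the authors' TPM 4 of 13 lay wholly above, beside 906 of all 14740 genes. mt-Co1, a subunit of cytochrome oxidase, had 1396, 1184 and 1435 CPM at 2 months and 2517, 2899 and 2722 CPM at 1 year, a log2 fold change of 0.71 (SE 0.22, adjusted p = 0.195). mt-Nd2, a subunit of complex I, had 210.3, 199.8 and 200.3 CPM and then 349, 321 and 346 CPM (adjusted p = 0.238). The ages were apart for both. Summed CPM of the 13 genes was 5061, 4429 and 5822 and then 8882, 9173 and 9853. Of 23 nuclear genes of oxidative phosphorylation, 0 passed, 6 had estimates above 0 and the median was -0.09, which ranged from -0.26 to 0.08 over the alternatives.

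Glycolysis genes behaved alike at a similar size. Of 21 tested, 18 had estimates above 0, and 14 (66.7%) lay wholly above 2 months, against 9.93% of all genes tested. In edgeR 0 passed, and 9 had an unadjusted p under 0.05 in the higher direction and 1 in the lower. The median log2 fold change was 0.47. With library size alone 8 of 21 lay wholly above, beside 2055 of all 14740 genes, and in the authors' TPM 5, beside 906. Eno1, enolase, had 71.9, 63.5 and 64.3 CPM at 2 months and 109, 109.7 and 137 CPM at 1 year (log2 fold change 0.83, SE 0.27, adjusted p = 0.223). Tpi1, triosephosphate isomerase, had 42.1, 40.4 and 26.1 CPM and then 42.5, 49.5 and 56.8 CPM, and Pgam1, phosphoglycerate mutase, had 37.3, 34.3 and 40.3 CPM and then 48.6, 59.0 and 57.8 CPM. Hk1, a hexokinase, had 92.5, 78.2 and 68.1 CPM and then 78.9, 77.9 and 67.2 CPM, with overlap. The median was 0.30 for glycolysis without the 1-year WT replicate 3, and 0.34 for the mitochondrial genes without the 2-month WT replicate 3.

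Basement membrane genes tended the other way. Of 19 tested, 14 had estimates below 0 and 8 (42.1%) lay wholly below 2 months, against 6.38% of all genes; 0 passed in edgeR, 5 had an unadjusted p under 0.05 in the lower direction and 1 in the higher, and the median log2 fold change was -0.26. Col7a1, the collagen of the anchoring fibrils, had 139, 168 and 133 CPM at 2 months and 109, 92.5 and 63.4 CPM at 1 year (log2 fold change -0.96, SE 0.26, adjusted p = 0.137). Col4a2, a chain of the collagen network of basement membranes, had 55.2, 51.6 and 51.1 CPM and then 35.5, 25.4 and 30.8 CPM (-0.68, adjusted p = 0.229). Lama3, a chain of laminin-332, had 294, 317 and 237 CPM and then 246, 246 and 154 CPM, with overlap. Under scaling by library size alone, all tested genes shifted up by a median of 0.40. There 0 of the 19 lay wholly below, beside 0.292% of all genes. Relative to that shift the list's median difference was -0.29. In the authors' TPM 3 lay wholly below, beside 204 of all 14740 genes. Wholly above lay 2 with library size alone and 1 in TPM, against 13.9% and 6.15% of all genes. The median log2 fold change was -0.06 without the 1-year and -0.17 without the 2-month WT replicate 3.

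Receptors that mark stem cell clones of the epidermis lay on the same side. Lrig1, a regulator of EGF receptors, had 189, 166 and 250.4 CPM at 2 months and 146, 129.9 and 137 CPM at 1 year (log2 fold change -0.72, SE 0.17, edgeR adjusted p = 0.101). Lgr6, a receptor of R-spondins, had 162, 151 and 129 CPM and then 119, 127 and 76.1 CPM (-0.48, adjusted p = 0.349). The ages did not overlap for either, and neither passed. Of the 7 tested clone markers 0 passed and 5 had estimates below 0, with a median of -0.48. That median was -0.18 without the 1-year and -0.27 without the 2-month WT replicate 3. Of the 7, 2 lay wholly below 2 months and 0 wholly above, against 6.38% and 9.93% of all genes. With library size alone, and in the authors' TPM, 1 of the 7 lay wholly above and 0 wholly below. Over all 14740 genes, 2055 (13.9%) and 906 (6.15%) lay wholly above, and 43 and 204 wholly below. Of 18 basal keratinocyte and hemidesmosome genes 0 passed, with a median of -0.25, which was -0.07 without the 1-year and -0.14 without the 2-month WT replicate 3. Smad3, which carries TGF-beta signals, had 56.1, 53.5 and 48.4 CPM and then 30.8, 38.0 and 24.4 CPM (-0.74, adjusted p = 0.222); of 22 tested BMP and TGF-beta genes 0 passed, and 15 had estimates above 0, with a median of 0.17.

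**Figure D3:**
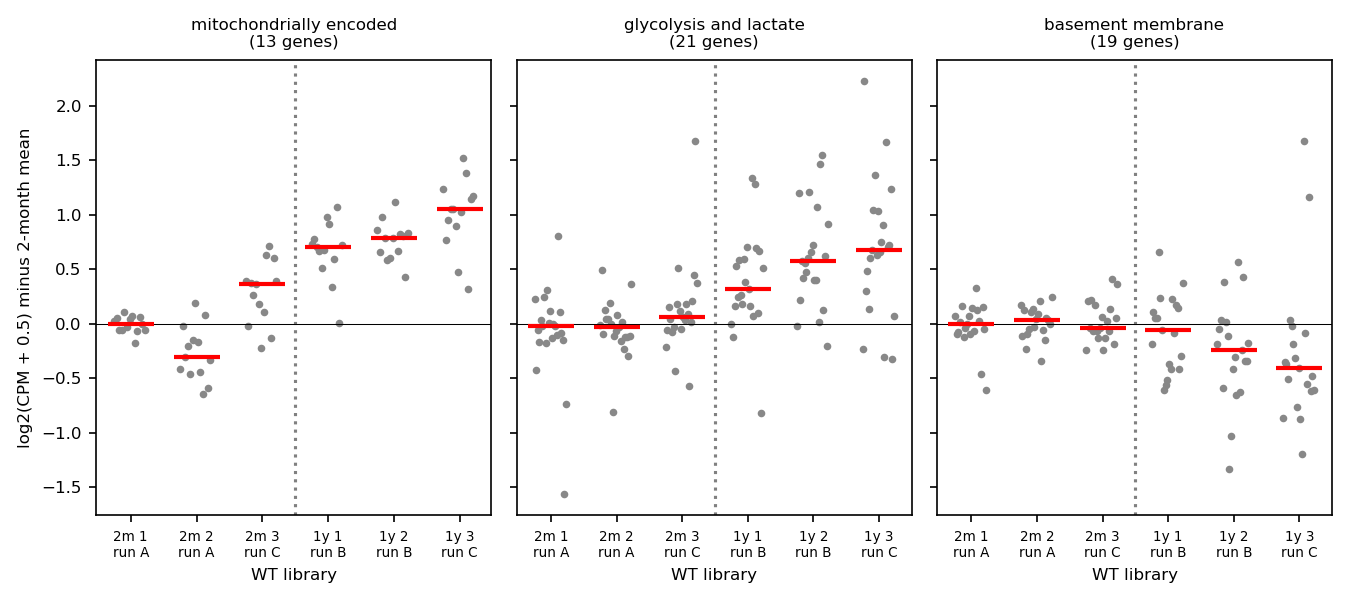
Each grey point is 1 gene in 1 WT library, as log2(CPM + 0.5) minus that gene's 2-month mean (y axis), for mitochondrially encoded, glycolysis and basement membrane genes; red bars are medians over the genes. The 3 libraries of 1 year sit above those of 2 months in the left and middle panels, while in the right panel the medians of replicates 2 and 3 at 1 year are below 0.

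Markers of differentiated epidermis, hair, sebaceous gland, T cells, myeloid cells and fibroblasts summed highest in the 1-year replicate 3 of run C. Other lists did not: endothelial markers summed highest in the 2-month replicate 1, melanocyte markers in the 1-year replicate 2, and Merkel and Schwann cell markers in run B. Epidermal differentiation genes summed to 4943, 5132 and 3671 CPM at 2 months and 2897, 3001 and 10646 CPM at 1 year. The run B libraries were thus the lowest of the 6 and the run C library the highest. Krt10, the keratin of suprabasal cells, had 1651, 1707 and 924 CPM and then 839.9, 822 and 2938 CPM. Of 25 tested members 24 had estimates above 0 and 0 passed in edgeR; the median log2 fold change of 1.58 was 0.45 without that library. Hair follicle stem and root sheath genes summed to 235, 162 and 134 CPM and then 146, 166 and 822 CPM, and hair matrix and shaft genes to 16.7, 15.4 and 16.8 CPM and then 26.3, 16.7 and 242 CPM. T cell markers summed to 15.2, 15.6 and 5.87 CPM and then 18.1, 22.6 and 43.4 CPM, and Langerhans and myeloid markers to 98.5, 61.7 and 94.9 CPM and then 71.8, 63.0 and 255 CPM. Fibroblast markers summed to 182, 144 and 112 CPM and then 131, 210 and 290.3 CPM; 6 of the 11 tested fibroblast markers lay wholly above 2 months, against 9.93% of all genes tested, and 4 of the 11 in the authors' TPM, against 6.15%.

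In these lists 0 genes passed. The same library stood apart in hair keratins and collagens, as in the run C ratios above. In KO at 1 year, 3 of the 4 libraries also summed high for differentiation genes (3139, 7583, 7501 and 11422 CPM), 2 of them in run C and 1 in run B. Over both genotypes, all 3 libraries of 1 year in run C were thus high, and 1 of the 4 in run B. What part such cells have in other differences of the run C pair was not tested. Lists whose medians changed sign without the 1-year WT replicate 3 included inflammation and alarmins (0.34 to -0.24), antioxidant genes (0.18 to -0.10) and cell cycle genes (-0.13 to 0.10).

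**Figure D4:**
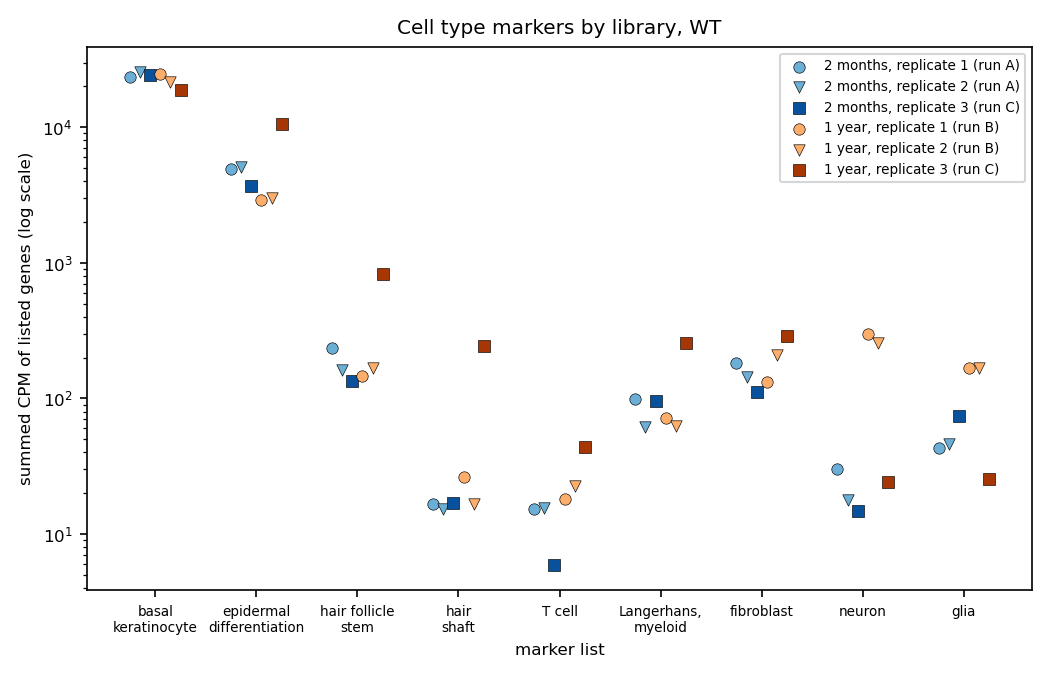
Summed CPM of 9 marker lists (x axis) in each of the 6 WT libraries, on a log scale (y axis). Basal markers are high everywhere, the 1-year library of run C (dark square) is highest for differentiation, hair, T cell, myeloid and fibroblast lists, and the run B libraries are highest for neuron and glia lists.

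Immediate early and stress genes, which cells switch on soon after a stimulus, were higher in 2 of the 3 libraries of 1 year. All 23 tested had estimates above 0, with a median log2 fold change of 1.73; 13 had an unadjusted p under 0.05 and 0 passed in edgeR. Fos, a subunit of the AP-1 factor, had 262, 210.4 and 93.8 CPM at 2 months and 136, 438 and 574 CPM at 1 year (log2 fold change 2.55, SE 0.85, adjusted p = 0.273). Fosl1, of the same family, had 1.19, 0.875 and 1.30 CPM and then 1.35, 12.0 and 12.2 CPM. Hbegf, a ligand of the EGF receptor, had 3.28, 1.22 and 0.724 CPM and then 1.71, 11.5 and 9.94 CPM. Replicate 1 of 1 year stayed near 2 months in all 3. In KO, the 2-month replicate 2 also summed high for this list, at 3338 CPM against 1204 and 1216 CPM. The 1-year WT replicate 1 was the Xist-high library among the WT libraries of its age, while the 2-month KO replicate 2 was Xist-low; with the Xist share as a covariate the list's median was 0.66.

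Lipid synthesis genes had estimates mostly above 0. Of 21 fatty acid and sterol synthesis genes 19 had estimates above 0, 10 had an unadjusted p under 0.05, 0 passed in edgeR, and the median log2 fold change of 0.86 was 0.41 without the 1-year WT replicate 3. Scd2, a stearoyl-CoA desaturase, had 11.04, 7.70 and 6.23 CPM at 2 months and 49.4, 49.2 and 32.4 CPM at 1 year (log2 fold change 1.99, SE 0.43, adjusted p = 0.0971). It was high in all 3 libraries of 1 year. Dhcr7, of the last steps of cholesterol synthesis, had 11.3, 10.3 and 13.2 CPM and then 13.5, 14.3 and 27.3 CPM (adjusted p = 0.0971), and Sqle, squalene epoxidase, had 8.35, 7.52 and 6.52 CPM and then 9.79, 6.72 and 27.1 CPM. Both were highest in run C at 1 year, where sebaceous gland markers summed to 222 CPM at 2 months and 453 CPM at 1 year.

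Fbln7 itself was near the detection limit at 2 months. It had 0, 2 and 16 reads at 2 months and 19, 14 and 38 at 1 year, or 0.503 ± 0.595 and 2.10 ± 0.483 CPM (SD, n = 3 each); the count of 0 allows up to 0.895 CPM in that library, taken as 3 reads and for counting error only. The 3 libraries of 1 year lay above the 3 of 2 months, but the difference did not pass (log2 fold change 1.26, SE 1.23, edgeR adjusted p = 0.724). In the libraries labelled KO it had 0.288, 0.220 and 0.0811 CPM at 2 months and 1.25, 1.45, 1.83 and 0 CPM at 1 year, so there too 3 of 4 libraries of 1 year lay above all of 2 months. Of 14 tested fibulin and elastic fibre genes 0 passed and 10 had estimates above 0, with a median of 1.41. That median was 0.59 without the 1-year WT replicate 3, 0.73 without the 2-month WT replicate 3, 0.29 with the 6 WT libraries alone and 0.01 with limma on the authors' TPM. Efemp1, which encodes another fibulin, had 101, 120.0 and 164 CPM and then 75.4, 119 and 44.9 CPM, a log2 fold change of -1.36 (adjusted p = 0.171).

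Of 19 tested clock genes, 0 passed in edgeR and 6 had an unadjusted p under 0.05, 3 in each direction. Nr1d1, a repressor of the clock, had 58.2, 62.3 and 74.2 CPM at 2 months and 67.6, 68.6 and 39.9 CPM at 1 year (log2 fold change -0.81, SE 0.18, edgeR adjusted p = 0.0799). Dbp, an output factor, had 58.5, 70.8 and 82.5 CPM and then 82.7, 67.6 and 34.8 CPM. For both, the run C library of 1 year was the lowest of the 6, while run B lay at or above run A on average.

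Few proliferation and arrest genes had small p-values. Mki67, a marker of cycling cells, had 211, 211 and 86.3 CPM at 2 months and 129, 202 and 126 CPM at 1 year (log2 fold change 0.24, SE 0.45). Of 28 cell cycle genes 0 passed in edgeR, 0 had an unadjusted p under 0.05, and the median was -0.13, which ranged from -0.64 without the 2-month WT replicate 3 to 0.19 without the 2-month KO replicate 3. In the list of arrest and senescence genes 0 of 16 passed, and a single member was under 0.05 before adjustment, Cdkn1a, an inhibitor of cyclin-dependent kinases, with 17.6, 14.3 and 27.1 CPM and then 15.5, 17.3 and 59.7 CPM, high in the run C library only. Of the 16, 4 lay wholly above 2 months and 0 wholly below, against 9.93% and 6.38% of all genes. Of 19 tested DNA damage genes, 2 had an unadjusted edgeR p under 0.05 in the higher direction and 1 in the lower. Over all genes tested, 1907 of 14740 had such a p in either direction. DNA damage, Wnt, Notch, Hedgehog and Hippo, heat shock and ribosomal protein lists had 0 called members each and medians between -0.20 and 0.08. Of 45 lists with tested members, 39 held no called gene, and 20 had medians of opposite sign in the run C pair and in the difference between runs B and A.

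**Figure D5:**
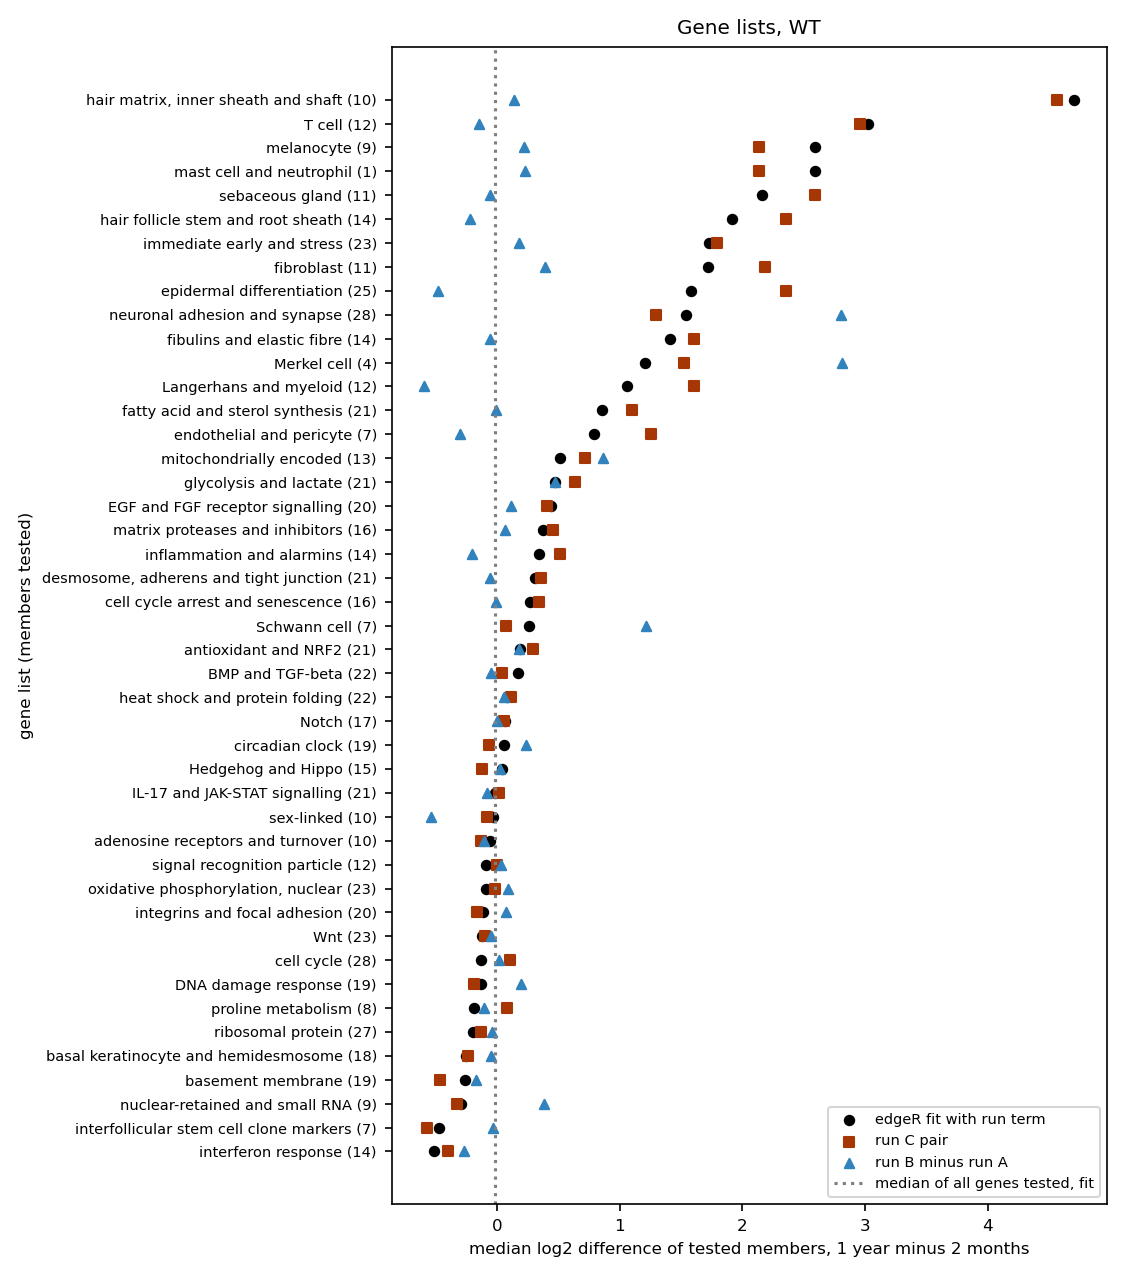
Median log2 difference between 1 year and 2 months (x axis) over the tested members of each gene list (y axis, number of members in parentheses), from the edgeR fit, the run C pair and the difference of runs B and A. Hair, T cell and differentiation lists are far to the right in run C and near or below 0 across runs A and B, whereas mitochondrially encoded and glycolysis genes are above 0 in all 3.

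The age difference in WT was set against that in KO within the same model. In edgeR 0 of 14740 genes had an adjusted p under 0.05 for the difference between the genotypes' age effects (smallest adjusted p 0.976), 595 had an unadjusted p under 0.05, and DESeq2 also called 0; without the filter on low counts edgeR called 103 of 30694 genes. Of the 30 genes called in WT, 4 had an unadjusted p under 0.05 for that difference. In KO libraries, 20 of the 23 higher genes lay wholly above at 1 year, against 11.5% of all genes tested, and 2 of the 7 lower genes wholly below, against 11%. The KO libraries also entered the fit that called these genes, so these counts are not independent of the calls. Map2 had 11.1, 12.3 and 8.60 CPM in KO at 2 months and 59.0, 90.4, 35.8 and 49.8 CPM at 1 year. Adora1 had 9.08, 10.8 and 8.93 CPM in KO at 2 months and 11.6, 9.59, 4.77 and 5.01 CPM at 1 year, so in KO the 2-month level was already near that of WT at 1 year and the ages overlapped.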

How the data were processed

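Per the labels' protocols, sorted cells were lysed in Trizol and low-input stranded total-RNA libraries were made. Each deposited table, per the file headers, holds total gene reads, which are whole-number counts per gene without normalization, beside the TPM values computed by the authors and RPKM values that were not used. The submitters' processing notes name the build mm10; the aligner, the counter, the annotation and its use of strand are not given in the sources used here. TPM leaves out some reads that the counts hold. Coordinates and spans are those of GENCODE M21 (GRCm38, the same assembly as mm10), matched by symbol.

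Groups and replicate numbers came from sample titles, and runs from the token in each table's name. All 13 libraries were fitted in edgeR 4.0.16 (R 4.3.3) with 4 group coefficients and run, TMM scaling, a filter by group with a minimum count of 10, the robust quasi-likelihood F test and Benjamini-Hochberg adjustment over 14740 genes at 0.05. Since run C alone holds both ages, its libraries of both genotypes set the fitted age difference. Those labelled KO enter through the genotype differences within runs A and B, so the fitted WT difference draws in part on KO libraries. Runs A and B also inform the spread. CPM are counts scaled by library size times the TMM factor. Run ratios used a prior count of 2 where drawn or summarised over genes. The pair of run C has 1 library per age and no test; its 95% intervals are exact binomial and, like the limit of 3 reads for a count of 0, cover counting error only, as reads carry no molecular identifiers. On simulated data with 14740 genes, the fit recovered 21.4% of genes changed by a log2 of 1 and 72.2% of those changed by 2, with 4 false calls.

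The groups, gene lists and tests were chosen with earlier results of these data known. There were 46 gene lists from general knowledge, drawn up with those results known, and 2 neural lists added after the values were seen. The neuronal adhesion, adenosine, proline and signal recognition particle lists open with called genes. Their counts of called members are therefore not independent of those calls. Lists are described by counts and medians without a test. Named genes were Fbln7, called genes with a mean of at least 1 CPM (at most 20 higher and 10 lower), in each list the first 2 tested members and the 3 of smallest p with that mean, and in the run C pair the 8 highest and 8 lowest ratios with at least 200 reads. Aspg, Sphkap, Sgcd and Nefl lie outside this rule and were chosen after their values were seen. Alternatives used DESeq2 1.42.0, limma 3.58.1 on log2(TPM + 1), other scalings and filters, other run terms, and each library left out. Python 3.11.15 with SciPy 1.17.1 was used for tables. Replicates differed by more than sampling noise in every pair. Some genes that the rule names are not reported here, in the text or in the plot of called genes.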

Additional observations from a re-analysis of the deposited data

How the results depend on the processing

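The count of genes called between the ages in WT (30) stayed within 1.5 times its value under RLE size factors (30) and without Rn18s-rs5 and mitochondrial genes (29). It was 945 without the filter on low counts, 116 without a run term (114 higher and 2 lower, 17 of the 30 among them), 616 with the 6 WT libraries alone, 1081 in run C alone with genotype as a term, 282 with DESeq2, 8 with the Xist share as a covariate, 419 without the 4 libraries of run B (chosen after seeing the data), and 0, 5 and 9 with limma on the authors' TPM with a pseudocount of 1, of 0.1 and without a filter. Leaving out each library in turn gave 0 to 699. The cause of these differences was not tested. The labels do not say whether the replicate number pairs the libraries. Deviations of same-numbered WT libraries correlated at 0.08, 0.18 and 0.25, and number 3 is also run C. Those of WT libraries of unlike number and age correlated at -0.21 to 0.15. With the replicate block and run kept the count was 24, and with the replicate block in place of run 387. The difference between the genotypes' age effects gave 0 calls in the fit and 103 without the filter. Of the 30 called genes, 28 kept their sign in every alternative that gave a value. Srp54a turned to -0.29 without a run term and Dpp6 to -0.075 in the TPM fit with a pseudocount of 0.1.

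In the run C pair, 1626 genes were past 2-fold with a minimum of 50 reads, 2964 with 20, 571 with 200 and 812 in the authors' TPM. Genes whose ages do not overlap numbered 2404, of which 60.9% were higher; with library size alone 98% of 2098 were higher, since all genes shifted up by a median of 0.40 on the log2 scale, and in the authors' TPM 81.6% of 1110. Median fold changes of 23 lists changed sign in at least 1 alternative; those of the mitochondrially encoded, glycolysis, basement membrane and interferon lists did not. Both ages were in 1 run only, with 1 WT library each, and genes of few reads, such as Aspg and Sphkap, have wide counting intervals.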
